A study of Solanum lycopersicum with 6 samples.

Results

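ACC synthase, the enzyme that turns S-adenosylmethionine (SAM) into 1-aminocyclopropane-1-carboxylic acid (ACC), is encoded in tomato (Solanum lycopersicum) by a small family, and 5 of its genes were examined here: ACS2, ACS4, ACS8, ACS3 and the gene listed as ACS1A. They were chosen by identifier from a deposited table of 8703 genes. Of 9 ACC synthase identifiers looked up, these 5 had a row, and other family members were not looked up. RNA was sequenced from pericarp, the fleshy fruit wall, cut from the equator of the fruit 38 days after anthesis (flower opening). All plants were of the Ailsa Craig background and were grown in 1 greenhouse regime; 3 libraries came from wild-type fruit (WT) and 3 from transgenic plants called jmj7. The series title names the target as SlJMJ7, a histone demethylase, and sets it beside ethylene signalling in ripening; the kind of transgene, and whether 1 line or several gave the fruit, are not stated in the labels.

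In plants ethylene is made from methionine in 3 steps. SAM synthetase makes SAM, ACC synthase converts it to ACC, and ACC oxidase releases ethylene from ACC. ACC synthase is commonly the limiting step, and tomato uses different family members at different stages. ACS2 and ACS4 are known for the autocatalytic ethylene burst of ripening fruit, called system 2, while ACS1A, with ACS6, is known for the low ethylene output of green fruit, called system 1.

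Several facts bear on every value. The jmj7 columns are headed JQ, which no label explains, and were assigned because WT is the other group, so each direction rests on that step. The table had been cut by the authors to genes that changed by more than 1 on the log2 scale with a p-value up to 0.0499, so a gene without a row was not analysed here. Of 7622 genes past a filter on low counts, 100% were called by edgeR's quasi-likelihood test at an adjusted p under 0.05, 37.2% of the tested genes higher and 62.8% lower in jmj7; the authors' deposited table marks 35.5% of its rows as higher and 64.5% as lower. A call of a member therefore carries no information beyond its presence in the table, and its direction is to be read against those 2 shares. The labels give no identifier for the target gene, whose level was not checked here. The replicates are not said to be separate plants, so that SDs measure the spread between these libraries only. SEs come from the fitted model, are never below counting error and also cover these libraries only.

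The ripening-associated pair was far higher in jmj7. ACS2 (Solyc01g095080.3) was at 461, 389 and 387 normalized counts in the WT libraries, where a normalized count is a read count over the library's deposited size factor. In jmj7 ACS2 stood at 20363, 19986 and 20240 normalized counts. The groups were far apart, and the highest jmj7 library was 1.02-fold the lowest. The log2 fold change of ACS2 was 5.62 ± 0.0532 (SE, n = 3 per group; edgeR adjusted p = 7.19e-44), a 49.0-fold rise that all jmj7 libraries showed.

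ACS4 (Solyc05g050010.3), the other system 2 gene, had 41, 30 and 48 WT reads, or 35.3, 28.1 and 36.7 normalized counts. The jmj7 libraries held 1960, 1380 and 1448 reads of ACS4, or 1839, 1817 and 1832 normalized counts. No WT library came near the jmj7 range. This is a 54.2-fold rise, or 5.76 ± 0.141 on the log2 scale (SE, n = 3 per group; edgeR adjusted p = 8.87e-37). The larger error than for ACS2 goes with the 119 reads that all WT libraries held together, against 1456 for ACS2.

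**Figure D1:**
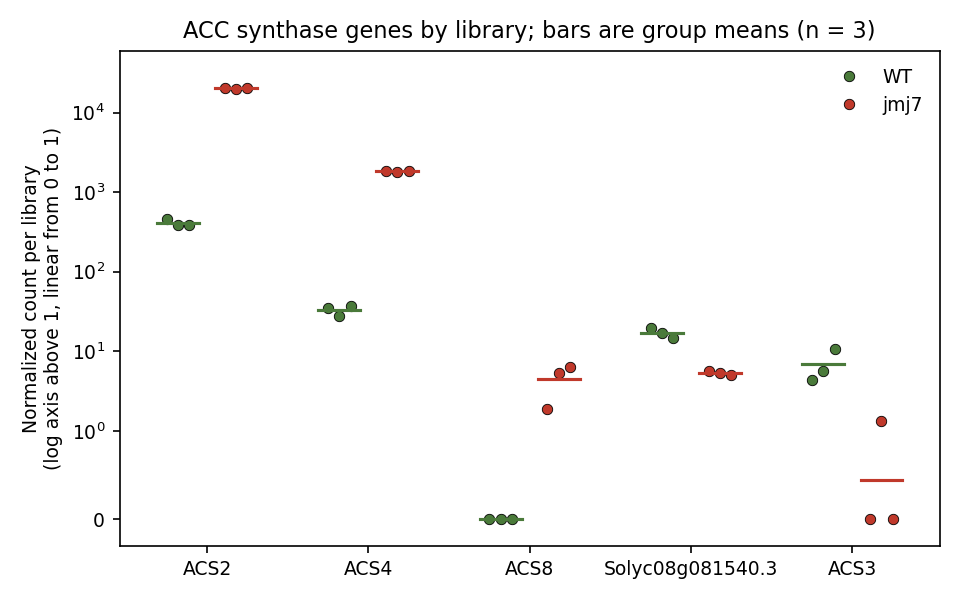
Normalized counts (y axis, logarithmic above 1 and linear from 0 to 1) of the 5 ACC synthase genes in each WT (green) and jmj7 (red) library, with bars at group means (n = 3). ACS2 and ACS4 lie higher in every jmj7 library, ACS8 has 0 reads in all WT libraries, and Solyc08g081540.3 and ACS3 lie lower in jmj7.

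Among the rows that the authors' deposited table marks as higher, 232 of 3087 had a larger log2 fold change than ACS2 and 217 had a larger one than ACS4. Both changes therefore belong to the upper tail of the table, where the median of the higher rows was 1.74 on the log2 scale in the authors' deposited table. The rank by level among the table's selected rows moved too, as folds of this size entail. By mean FPKM (fragments scaled to gene length and library total), ACS2 ranked 3117 among the 8703 rows in WT and 167 in jmj7, and ACS4 ranked 6579 in WT and 1121 in jmj7.

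ACS8 (Solyc03g043890.3), unlike ACS2 and ACS4, had reads in jmj7 alone, and few. The jmj7 libraries held 2, 4 and 5 reads of this ACC synthase gene, and the WT libraries held 0, 0 and 0. The groups did not overlap. Over 62472686 WT reads a count of 0 allows up to 0.0480 reads per 1000000, counting error only, while the jmj7 libraries held 0.173 ± 0.0894 reads per 1000000 (SD, n = 3). A floor of 3 reads over the WT group, in place of the 0 seen, put ACS8 4.96-fold higher in jmj7 on normalized counts and 3.37-fold higher per library total. With 0 WT reads the true folds could be far larger. The floor values also take the 11 jmj7 reads as exact, so the true folds could be smaller as well. ACS8 did not pass the low-count filter and so has no call; an exact two-sided permutation test on its normalized counts gave p = 0.1, the smallest p that 3 against 3 libraries allow.

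Solyc08g081540.3, listed as ACS1A, was lower in jmj7. It had 23, 18 and 19 reads in WT and 6, 4 and 4 in jmj7, which is 19.8, 16.9 and 14.5 normalized counts against 5.63, 5.27 and 5.06. The ranges did not overlap, although both are low. On the log2 scale the change was -1.64 ± 0.467 (SE, n = 3 per group; edgeR adjusted p = 0.000486), a 3.13-fold lower level, and 4238 of the 5616 rows marked as lower in the authors' deposited table fell further. When size factors were recomputed from the table's own genes, the difference was -0.43 on the log2 scale and was no longer called (edgeR adjusted p = 0.387). The name is uncertain: a reference gene table holds ACS1A and ACS1B side by side on chromosome 8 and pairs neither with this identifier, and no source used here says how reads shared by these similar neighbours were counted. The next identifier, listed as ACS1B, has no row and was not analysed here. In the reference ACS1B starts before ACS1A, at base 66757884 against 66761876. That is the reverse of the listed order, so Solyc08g081540.3 could be ACS1B.

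ACS3 (Solyc02g091990.3), a further ACC synthase gene, was near 0 reads in jmj7. WT libraries held 5, 6 and 14 of its reads, and jmj7 libraries held 0, 1 and 0. The only jmj7 read was in replicate 2, and WT replicate 3 held more than the other WT libraries together. The pooled ratio was 18.5-fold lower in jmj7, with an exact 95% counting interval from 3.03 to 759. ACS3 was below the low-count filter, and the exact two-sided permutation test again gave its smallest possible p, 0.1.

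Of the 5 genes, ACS2, ACS4 and Solyc08g081540.3 were therefore tested by edgeR, with 2 called higher and 1 called lower, and ACS3 and ACS8 were left below the filter. The libraries of WT and jmj7 did not overlap for any of the 5, in a table where the groups did not overlap for 99.3% of rows.

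Levels can be set against each other only per length. Because each FPKM value is a read count over a gene length and a library total, both were recovered from the table as whole numbers: the lengths used were 2121 bases for ACS2, 1790 for ACS4, 1898 for ACS8, 1903 for Solyc08g081540.3 and 2673 for ACS3, and the totals ran from 19005739 to 27661614 reads. In WT, ACS2 had 11.0 ± 1.24 FPKM, ACS4 1.06 ± 0.151, Solyc08g081540.3 0.508 ± 0.0832 and ACS3 0.145 ± 0.0709 (SD, n = 3), with ACS8 at 0. No neighbours in this order had overlapping libraries. In jmj7, ACS2 had 367 ± 3.94 FPKM and ACS4 39.3 ± 0.291. The next was Solyc08g081540.3 at 0.108 ± 0.00587 FPKM, and ACS8 at 0.0910 ± 0.0471 FPKM overlapped it. ACS3 was last with 0.00631 ± 0.0109 FPKM.

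**Figure D2:**
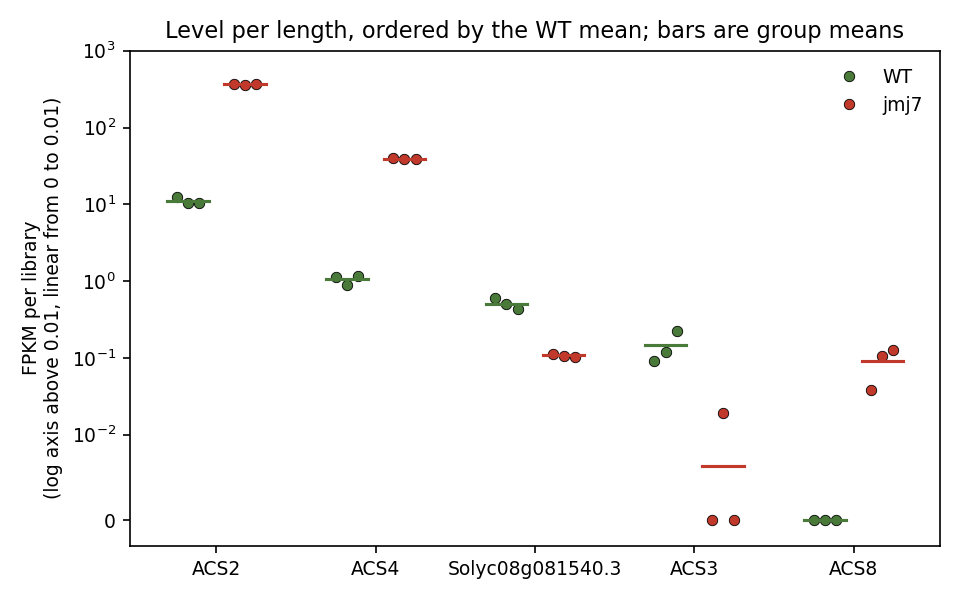
FPKM (y axis, logarithmic above 0.01 and linear from 0 to 0.01) of each gene in each library, ordered by the WT mean, with bars at group means. ACS2 leads in both groups, followed by ACS4, and the other genes stay under 1 FPKM throughout.

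Summed over the 5 genes, the level was 12.7 ± 1.34 FPKM in WT and 406 ± 4.20 FPKM in jmj7 (SD, n = 3), a 31.9-fold difference. ACS2 made up 87.2%, 87.3% and 85.0% of that sum in the WT libraries and 90.3%, 90.2% and 90.3% in jmj7. The 3 lesser genes together held 4.83%, 5.22% and 5.42% in WT and 0.0371%, 0.0578% and 0.0567% in jmj7. The groups do not overlap in either share. Nor do they for the ACS4 share, at 8.32 ± 1.09% in WT and 9.69 ± 0.0286% in jmj7 (SD, n = 3). The exact two-sided permutation test gave p = 0.1 for each of these shares, its smallest value. The shares follow from the folds of these genes, whose rows were all selected for a change, and add no separate result. These are shares among the 5 listed genes, and ACC synthase genes without a row or not looked up are not in the sum.

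The FPKM scale puts jmj7 lower against WT than normalized counts do, by 1.47-fold for every gene, since the 2 scales divide by different library factors. Rises are therefore smaller in FPKM and falls larger. ACS2 rose 33.3-fold in mean FPKM and ACS4 37.3-fold, while Solyc08g081540.3 was 4.72-fold lower in mean FPKM against 3.21-fold in mean normalized counts. The table's genes took 39.5% to 39.7% of the library totals in WT and 55.1% to 55.4% in jmj7. As a share of the library, ACS2 took 23.3 ± 2.63 reads per 1000000 in WT and 777 ± 8.37 in jmj7, and ACS4 took 1.89 ± 0.271 and 70.4 ± 0.522 reads per 1000000 (SD, n = 3).

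The ratio of ACS2 to ACS4 within a library does not depend on how libraries are scaled. In FPKM this ratio was 11.0, 11.7 and 8.90 for WT and 9.34, 9.28 and 9.32 for jmj7. WT replicate 3 fell below all jmj7 libraries and the other WT libraries lay above them, so the groups overlapped. The means were 10.5 ± 1.45 in WT and 9.32 ± 0.0313 in jmj7 (SD, n = 3; exact two-sided permutation p = 0.4). The ratio in jmj7 was 0.903 of that in WT on pooled reads, with an exact 95% counting interval from 0.741 to 1.09. A difference between the folds of ACS2 and ACS4 was thus not detectable at this depth.

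**Figure D3:**
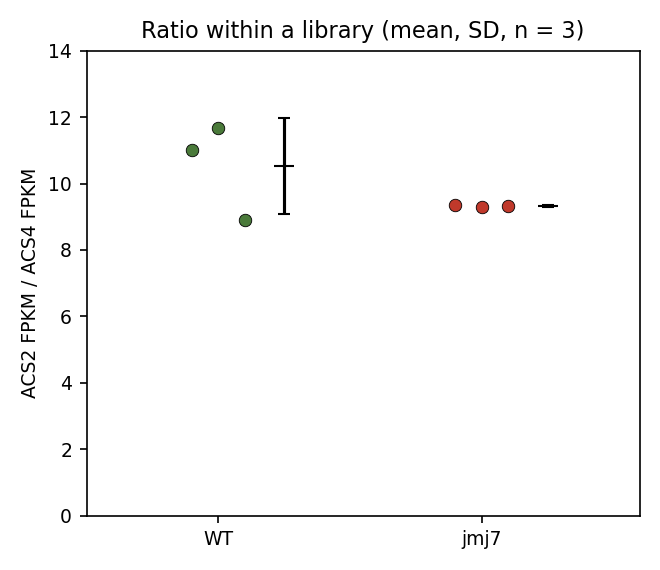
ACS2 FPKM divided by ACS4 FPKM (y axis) in each WT and jmj7 library, with mean and SD beside the points (n = 3). The jmj7 libraries lie between 9.28 and 9.34, inside the WT range of 8.90 to 11.7.

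The spread between replicates was compared with counting error for the abundant pair. For ACS2 the SD of normalized counts was 42.2 in WT, where counting alone gives 18.7, and 192 in jmj7, where counting alone gives 154. WT replicate 1 was the high one, at 1.19-fold of the lowest. For ACS4 the SD was 4.61 in WT against 5.36 from counting, and 11.3 in jmj7 against 46.3. The jmj7 libraries thus agreed more closely on ACS4 than counting error alone would give on average.

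Genes of ethylene synthesis as a whole moved in both directions. A list of 18 identifiers for SAM synthetases, ACC synthases and ACC oxidases had 10 rows, of which 8 were tested. Of these, 3 were called higher (ACS2, ACS4 and 1 ACC oxidase gene) and 5 lower (Solyc08g081540.3 among them), close to the 37.2% higher and 62.8% lower of all genes tested, with a median log2 fold change of -1.53, against -1.44 over all 7622 genes tested. Upstream, SAM1 (Solyc01g101060.3), a SAM synthetase gene, fell from 60847, 64524 and 64278 normalized counts in WT to 8253, 7799 and 7696 in jmj7. The groups were well apart, and the level was 7.98-fold lower (-3.00 ± 0.0380 on the log2 scale, SE, n = 3 per group; edgeR adjusted p = 2.98e-39). SAM2 (Solyc12g099000.2), another SAM synthetase gene, fell 2.66-fold, from 9943 ± 305 to 3741 ± 40.4 normalized counts (SD, n = 3). Under recomputed size factors SAM2 fell by 0.18 and SAM1 fell by 1.77 on the log2 scale, and both stayed called.

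Downstream, the ACC oxidase genes described here split. ACO6 (Solyc02g036350.3) rose 5.72-fold, from 2966 ± 65.3 to 16972 ± 43.3 normalized counts (SD, n = 3), and ACO5 (Solyc07g026650.3) fell 31.5-fold, from 1292 ± 27.2 to 40.8 ± 2.45. The fifth list gene called lower, Solyc10g083970.1, has no symbol in the reference and is counted only. ACO1, the best known ACC oxidase gene of ripening fruit, has no row and was not analysed here.

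**Figure D4:**
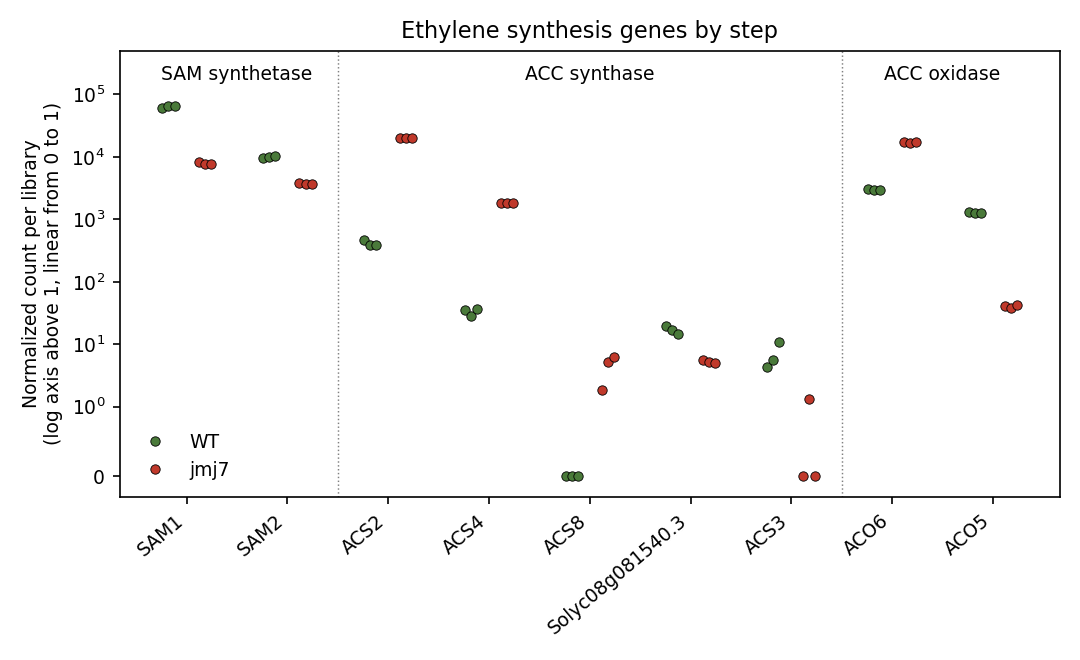
Normalized counts per library (y axis, logarithmic above 1 and linear from 0 to 1) of ethylene synthesis genes with a row and a checked step, ordered from SAM synthetase through ACC synthase to ACC oxidase. SAM1 and SAM2 lie lower in jmj7 (red) than in WT (green), ACS2, ACS4 and ACO6 lie higher, and ACO5 lies lower.

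Genes with the most similar pattern were sought by the root-mean-square difference in log2(FPKM + 0.1) over the 6 libraries, which weighs level as well as change. Closest to ACS2 was Solyc01g100760.2, at a distance of 0.0775, with 11.7 ± 1.89 FPKM in WT and 373 ± 9.85 in jmj7 (SD, n = 3). The third closest was NOR (Solyc10g006880.3), a NAC transcription factor required for ripening, at a distance of 0.219, with 9.09 ± 0.366 FPKM in WT and 399 ± 10.8 in jmj7. Closest to ACS4 was Solyc10g038080.2, at 0.236, with 0.867 ± 0.0530 FPKM in WT and 38.9 ± 1.18 in jmj7. Few rows came close to either gene: 10 lay within a distance of 0.5 of ACS2 and 8 of ACS4, while 146 lay that close to Solyc08g081540.3, led by Solyc12g005560.1 at 0.159. Solyc08g081540.3 had 0.508 FPKM in WT and 0.108 in jmj7, near the added 0.1, which shrinks differences between low rows. Its count of close rows is therefore not comparable with those of ACS2 and ACS4. Neither the table nor the reference pairs the identifiers given without a symbol with names. With 6 libraries in 2 groups, likeness of this kind reflects mainly the 2 group levels.

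Rows that neighbour the members in identifier order did not form one pattern. Genes without a row are skipped, so these rows need not be adjacent genes. The second row before ACS4, Solyc05g048860.3, has a locus number gap of -1150 to it. Of the 4 nearest rows (2 on each side), 1 moved the same way as ACS2, 1 as ACS4, 2 as ACS8, 1 as Solyc08g081540.3 and 4 as ACS3 in the authors' deposited table, in which 64.5% of rows are lower. The row just before ACS4, Solyc05g049990.3, had a log2 fold change of -4.19 in the authors' deposited table, against 5.77 for ACS4 there.

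A pair of ripening markers was higher in jmj7, as were ACS2, ACS4 and ACS8, while Solyc08g081540.3 and ACS3 were lower. RIN (Solyc05g012020.3), the MADS-box regulator of ripening, had 16, 14 and 27 reads in WT and 26799, 19336 and 20912 in jmj7. PG2a (Solyc10g080210.2), the polygalacturonase of softening fruit, had 3, 2 and 6 reads in WT and 675936, 512240 and 533109 in jmj7. All fruit was of 1 age, and a direct effect of the genotype on ACC synthase genes and a difference in ripening stage cannot be told apart in these samples. In bulk tissue, a change in the number of cells of a type and in RNA per cell cannot be told apart either.

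The direction of all 5 genes was the same under other library scalings, while the size of the folds moved together. The median over all tested genes shifted by 0.32 on the log2 scale with TMM, by 1.23 with recomputed size factors, by -0.56 with full library totals and by -1.04 with total reads in the table. The log2 fold change of ACS2 ran from 4.58 with total reads in the table to 6.84 with recomputed size factors, and that of ACS4 from 4.72 to 6.99 under these scalings. The recomputed factors and TMM assume that most rows are unchanged, and every row here had been selected for a change.

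**Figure D5:**
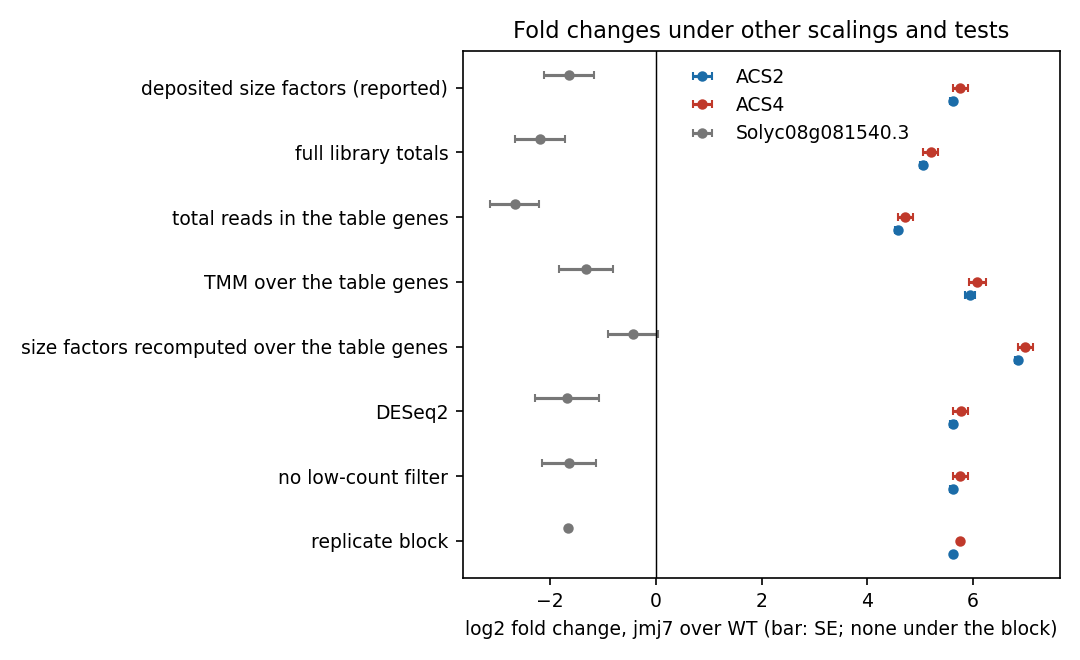
Log2 fold change of jmj7 over WT (x axis; bars are SE, absent under the replicate block) for ACS2, ACS4 and Solyc08g081540.3 under the scalings and tests named on the y axis. ACS2 and ACS4 stay above 4 throughout, and Solyc08g081540.3 lies nearest to 0, at -0.43, under recomputed size factors.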

How the data were processed

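HISAT2 is the tool named, per the submitters' processing notes; no source used here gives its version, a genome build, a counting tool or strand handling. The deposited table holds raw read counts, FPKM values and a signal per library, the normalized count, which is the count over a size factor, per the file headers and the values. It also gives the authors' log2 fold changes, and the authors' p-values. Library totals and gene lengths were recovered from counts and FPKM as whole numbers in every library; whether the totals are all mapped reads or reads in genes is not known. WT columns were matched by name and the others assigned to jmj7 by elimination.

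Counts of the whole table were tested in R 4.3.3 by edgeR 4.0.16's quasi-likelihood test, scaled with the deposited size factors. The filter was filterByExpr (minimum count 10), fitted folds used a prior count of 0.125, and p-values were adjusted by Benjamini-Hochberg over all genes tested. SEs are Wald errors, never below counting error. Single genes had exact permutation tests over libraries. Alternatives used TMM, DESeq2 1.42.0 and limma 3.58.1 on log2(FPKM + 0.1) and log2(FPKM + 1). The fit was tested on simulated counts in which most genes were unchanged, unlike this table, so that test does not cover the selection of its rows. Same-group libraries differed beyond sampling noise (chi-square per gene from 1.60 to 3.52), so each counted as 1 library. Intervals cover counting error only, and floors cover only that of the group without reads.

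Symbols were checked by chromosome against a reference gene table of assembly SLM_r2.1, in which Solyc identifiers do not occur. Of the 10 list genes with a row, 9 matched and 1 had no symbol there. Among identifiers without a row, that of ACO3 (Solyc07g049550) did not match, since the reference has ACO3 on chromosome 9. Those entered as ACS5 or ACS6 were not matched to a symbol. The lack of these rows may therefore come from a wrong identifier. The 5 genes, the list and the scaling were chosen with earlier results of these data known. For genes of like pattern, the rule took the 3 nearest rows to each tested member; those named are the nearest of each and the one with a symbol. For 1 identifier of the list as first written, results are not reported here.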

Additional observations from a re-analysis of the deposited data

How the results depend on the processing

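Across 15 alternatives for each of the 5 genes, none of 75 log2 fold changes turned direction, and 66 kept the same call status. The 66 include every alternative in which ACS3 or ACS8 stayed below the filter, where no call could be made. Solyc08g081540.3 lost its call when size factors were recomputed from the table's own genes (-0.43; edgeR adjusted p = 0.387). ACS3 and ACS8, below the low-count filter, were called wherever the filter was absent, as were 100% of the 8703 rows in edgeR: ACS3 at -3.82 in edgeR without the filter, -4.06 in DESeq2, -1.17 in limma on log2(FPKM + 0.1) and -0.19 on log2(FPKM + 1), and ACS8 at 5.17, 4.82, 0.90 and 0.12 in the same order. These rest on 26 and 11 reads, and the fitted values depend on the prior count or pseudocount. Leaving out single libraries gave 5.57 to 5.70 for ACS2, 5.66 to 5.84 for ACS4 and -1.76 to -1.52 for Solyc08g081540.3, and -5.94 to -3.21 for the fitted value of ACS3, the first without jmj7 replicate 2, which held its only jmj7 read. All 60 counts of called genes stayed within 1.5 times of those reported, in a table selected for calls. With the replicate number as a block, 2837 genes were called higher and 4785 lower, as without it. The selection of the table leaves these counts little room to change. Same-numbered libraries did not deviate together (r = -0.100, 0.0331 and -0.0483). The labels do not say whether the numbers pair the samples, and the reported fit did not pair them. The full-total scaling was chosen after seeing the data.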
